A study of Mus musculus with 18 samples.

Results

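The genes described here build the hair shaft and the inner root sheath, the sleeve of cells that moulds the growing shaft inside the hair follicle. They were taken from a table of RNA-seq read counts as every gene whose symbol begins with Krtap (32 genes) and 26 listed hair keratins, trichohyalins, transcription factors and hair enzymes. All 26 listed symbols had a row, so 58 of the 21011 genes in the table were followed. The table holds 18 mice, 1 library each, from dorsal skin labelled telogen, when follicles rest. The study's question was what removing Notch signals from separate compartments of the skin does to the epidermis and sebaceous glands.

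The 3 mutants differed in the gene deleted and in the Cre driver. In KR mice (n = 4) K14-CreERT, driven by a keratin 14 promoter active in basal keratinocytes and the outer cells of the follicle, deleted Rbpj, the DNA-binding partner of Notch receptors. In the 3 LR mice Rbpj was deleted by Lrig1-CreERT2, expressed from the locus of a marker of upper follicle stem cells. In KN1 mice (n = 4) a driver that the labels write as K14-CreERT1 deleted the receptor gene Notch1. Each mutant had controls from its own batch, a batch being the cage label: 2 for KR, 3 for LR and 2 for KN1. The labels do not say which alleles the controls carried. All groups received tamoxifen at 8 weeks of age and were harvested 10 weeks later. Epidermal cells were freed by overnight trypsin, scraped off and filtered through a mesh meant to hold back hair shafts, and every level below refers to that fraction of the skin. Mice are named below by group and by the number in their label, such as KR 3 or LR control 2.

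A hair is made in the growth phase. Matrix cells at the follicle base divide and then differentiate in concentric layers: the medulla, cortex and cuticle of the shaft, and the layers of the inner root sheath around it. The inner root sheath uses its own keratins (Krt25, Krt27, Krt28, Krt71, Krt72, Krt73) and trichohyalin, whereas the shaft uses the hard hair keratins (Krt31 to Krt35 and Krt81 to Krt86), which are cross-linked into a matrix of keratin-associated proteins encoded by the Krtap genes. Foxn1, Hoxc13, Msx2 and Dlx3 are transcription factors of the differentiating matrix. In resting follicles the matrix regresses and a finished club hair stays anchored.

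Library totals ran from 8076316 to 21216169 counts. The 2 deepest, KR control 4 and KN1 control 1, each merge 2 sequencing occasions of 1 mouse. The 18 libraries had the keratins of epidermis at high levels, with Krt5 between 11180 and 18640 CPM (the count scaled to the library's total by TMM factors) and Krt10 between 6147 and 20980 CPM. Mitochondrial genes took 0.650% to 3.17% of the counts, highest in KR control 6. Notch1 was 81.9 to 156 CPM in the KN1 mice and 172 and 251 CPM in their controls, and it fell in the fit over all genes (log2 fold change -0.91 ± 0.19 SE, edgeR adjusted p = 0.0251). That call was lost without KN1 control 1 (adjusted p = 0.163), KN1 control 7 (0.119) or KN1 4 (0.0758). Rbpj was 40.9 to 45.9 CPM in KR against 58.1 and 60.8 CPM in its controls (-0.47 ± 0.17, adjusted p = 0.135), and 29.9 to 37.9 CPM in LR against 42.7 to 73.1 CPM (-0.66 ± 0.17, adjusted p = 0.0659). Neither Rbpj difference passed 0.05. In the KN1 batch, where Rbpj was not targeted, it was 30.9 to 36.8 CPM in mutants against 42.6 and 44.2 CPM in controls (-0.34 ± 0.18, adjusted p = 0.310), which did not pass either. Every mutant there also lay below both controls, an order shown by 14.3% of all genes tested. For both targeted genes, reads outside the deleted exons would still be counted. A bulk cell fraction cannot tell fewer cells of a type from less RNA per cell, which holds for every level below. No label gives the stage of individual follicles.

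The genes lie mostly in 3 clusters of the mouse genome (GRCm38, annotation GENCODE M21, which placed 57 of the 58; Krt85 had no match). On chromosome 11 a stretch of 781 kb (chr11:99315516-100096241) holds 23 of them, namely the type I keratins and 14 Krtap genes. On chromosome 15 a stretch of 343 kb (chr15:101459061-101802346) holds 7 type II keratins. On chromosome 16 a stretch of 924 kb (chr16:88646824-89571183) holds 18 Krtap genes and no other member. Of the 32 Krtap genes 30 have a single exon. GENCODE M21 lists 57 protein-coding Krtap genes, and the table had a row for 32. Near-identical Krtap copies may lose or share reads. Krtap14 and Krtap15 overlap on opposite strands, and with the strand setting of the counting not stated, their reads cannot be told apart.

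Promoter sequences are shown because many of these genes were high in the same mice. RefSeq (GRCm38.p6) gave windows from 250 bases before to 50 bases after the start site for 47 of the 58. The TATA box letters TATAAA occurred on either strand in 36 of the 47 genes (76.6%), against 15.7% of 27025 genes with a window. On the gene's own strand, starting 20 to 60 bases before the start site, they stood in 30 of 47 (63.8%) against 3.08%. CTTTGAA, a core sequence recognised by LEF1 and TCF factors of the Wnt pathway, occurred on either strand in 14 of 47 (29.8%) against 5.93%. It began 230 to 250 bases upstream on the gene's strand in 8 of 47 genes (17.0%) against 0.329%, a stretch chosen after the sites were seen. Those 8 were Krt31, Krt32, Krt33b and Krt34, which are all 4 type I shaft keratins with a window, and Krtap1-5, Krtap11-1, Krtap16-3 and Krtap19-3. These genes are neighbours and partly copies of each other, so the shares are not independent, and a match describes letters only. The 250 bases before the start site of 5 genes follow, 5′ to 3′ on the gene's strand, with TATAAA and CTTTGAA in capitals (the motifs do not overlap each other). Krt31 (chr11:100050552-100050801), Krt32 (chr11:100088270-100088519) and Krtap11-1 (chr16:89571184-89571433) carry both motifs. Krt71 (chr15:101743098-101743347) and Krtap8-1 (chr16:89487953-89488202) carry the TATA letters only. All 5 lie on the minus strand.
Krt31: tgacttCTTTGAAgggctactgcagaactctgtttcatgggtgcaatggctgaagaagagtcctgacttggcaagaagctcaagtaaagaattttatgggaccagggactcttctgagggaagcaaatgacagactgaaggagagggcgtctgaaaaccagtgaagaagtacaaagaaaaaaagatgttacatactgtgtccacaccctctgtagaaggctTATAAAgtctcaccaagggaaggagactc
Krt32: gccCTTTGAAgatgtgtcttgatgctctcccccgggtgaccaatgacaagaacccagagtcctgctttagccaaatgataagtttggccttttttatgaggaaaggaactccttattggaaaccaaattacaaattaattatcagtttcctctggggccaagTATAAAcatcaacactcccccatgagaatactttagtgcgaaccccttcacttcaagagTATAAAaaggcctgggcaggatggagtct
Krtap11-1: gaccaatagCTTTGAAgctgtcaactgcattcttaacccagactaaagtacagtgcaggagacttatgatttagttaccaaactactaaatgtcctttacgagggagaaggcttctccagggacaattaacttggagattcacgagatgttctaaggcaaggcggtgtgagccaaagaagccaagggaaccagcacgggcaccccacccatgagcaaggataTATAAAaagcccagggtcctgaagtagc
Krt71: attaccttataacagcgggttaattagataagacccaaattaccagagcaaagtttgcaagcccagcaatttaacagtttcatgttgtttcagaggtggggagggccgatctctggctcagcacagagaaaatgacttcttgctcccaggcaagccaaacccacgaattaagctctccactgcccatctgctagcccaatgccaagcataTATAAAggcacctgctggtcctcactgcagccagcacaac
Krtap8-1: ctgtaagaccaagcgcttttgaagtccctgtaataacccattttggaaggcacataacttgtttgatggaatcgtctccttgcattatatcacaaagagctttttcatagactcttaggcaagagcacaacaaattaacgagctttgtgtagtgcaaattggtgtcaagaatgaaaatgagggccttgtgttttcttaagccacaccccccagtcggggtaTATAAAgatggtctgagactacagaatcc

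The inner root sheath keratins differed widely between mice of the same group, except among the KN1 controls. Summed over Krt25, Krt27, Krt28, Krt71, Krt72 and Krt73, they stood at 3.09 CPM in KR control 4 and 319 CPM in KR control 6. In KR 1, KR 3, KR 4 and KR 5 the sum was 1.90, 78.8, 280 and 461 CPM. LR control 2, LR control 3 and LR control 5 had 285, 1.47 and 0.984 CPM, and LR 1, LR 2 and LR 3 had 5.18, 479 and 7.22 CPM. The KN1 controls 1 and 7 had 4.03 and 2.50 CPM, and KN1 1 to KN1 4 had 16.1, 490, 17.6 and 194 CPM. Thus 8 mice were at 78.8 CPM or more and the other 10 at 17.6 CPM or less, with no mouse between. The high mice included 1 KR control, 1 LR control, 3 KR, 1 LR and 2 KN1 mice. KR and LR overlapped their controls over the whole range, and the 4 KN1 mice all lay above both of their controls.

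Krt71, a type II keratin of the inner root sheath, was the highest per kilobase of transcript of the 57 genes with an annotated length, at a mean of 28.2 CPM per kb over 18 mice. Krt71 stood at 0.531 and 136 CPM in KR controls 4 and 6, and at 0.475, 36.9, 116 and 194 CPM in KR 1, KR 3, KR 4 and KR 5. In LR controls 2, 3 and 5 Krt71 was 128, 0.339 and 0.268 CPM, and in LR 1, LR 2 and LR 3 it was 2.59, 198 and 1.51 CPM. In KN1 controls 1 and 7 Krt71 was 0.459 and 0.217 CPM, and in KN1 1 to KN1 4 it was 6.06, 200, 5.54 and 83.4 CPM. These were the mice that stood high for the sum of the 6 keratins. Krt25, its type I partner, reached a mean of 17.0 CPM per kb, and it ranged from 0 in LR controls 3 and 5 and KN1 control 7 to 112 CPM in KR 5. Krt72, a keratin of the inner root sheath cuticle, was the lowest of the 6 at a mean of 1.99 CPM per kb, and its highest mouse was LR 2 at 19.0 CPM.

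**Figure D1:**
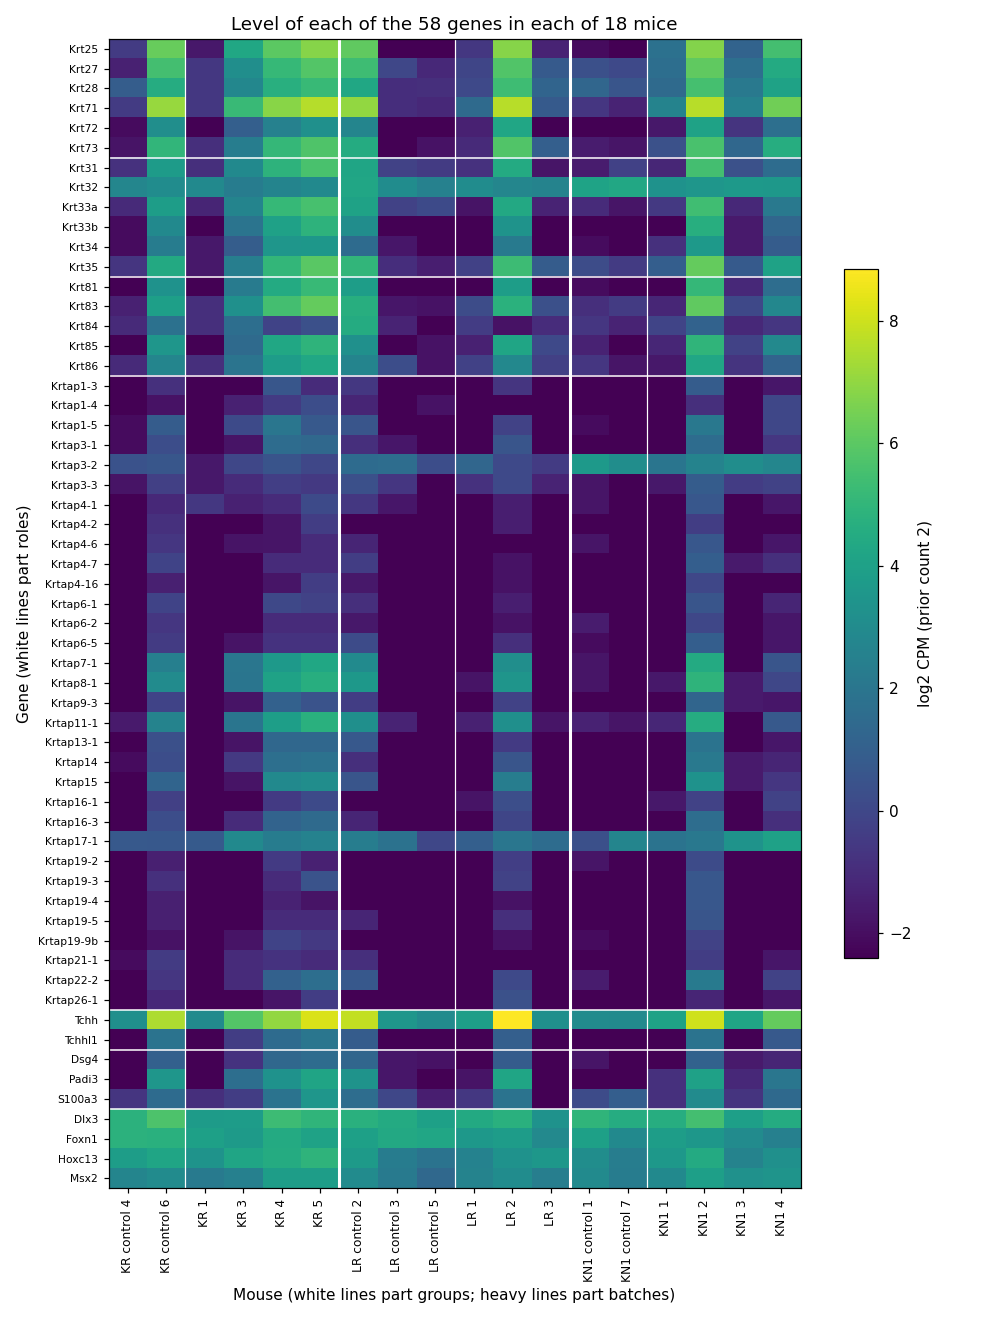
Level of each of the 58 genes (rows, grouped by role) in each of 18 mice (columns, grouped by batch), as log2 CPM with a prior count of 2. Most rows brighten in the same columns, KR control 6, KR 3, KR 4, KR 5, LR control 2, LR 2, KN1 2 and KN1 4. Krt32 and the 4 transcription factors at the foot vary less between columns. Tchh brightens in those columns too but stays at 2.98 or more in every column. Krtap17-1 lies between -0.01 and 4.02, and Krtap3-2 is brightest in the KN1 batch.

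Most hair shaft keratins followed the same mice. Krt35, a type I keratin of the early shaft and its cuticle, stood at 0.435 and 21.4 CPM in KR controls 4 and 6, and at 0.119, 5.15, 32.3 and 62.6 CPM in KR 1, KR 3, KR 4 and KR 5. For Krt35 the LR controls 2, 3 and 5 gave 31.6, 0.339 and 0.179 CPM, and in LR 1, LR 2 and LR 3 it was 0.671, 39.8 and 1.62 CPM. In KN1 controls 1 and 7 it was 0.968 and 0.543 CPM, and in KN1 1 to KN1 4 it was 1.73, 72.8, 1.52 and 16.4 CPM. Krt83, a type II keratin of the cortex, gave 0.193 and 15.0 CPM in KR controls 4 and 6, then 0.356, 9.31, 43.9 and 72.1 CPM in the KR mice in the same order. For Krt83 the LR controls 2, 3 and 5 had 24.5, 0.113 and 0.0894 CPM, and LR 1, LR 2 and LR 3 had 0.959, 27.3 and 1.08 CPM. For Krt83 the KN1 controls 1 and 7 had 0.357 and 0.543 CPM, and KN1 1 to KN1 4 had 0.247, 68.8, 0.831 and 6.78 CPM. The same 8 mice were the highest for Krt35 and Krt83, with no mouse of another name above them. Krt31, Krt33a, Krt33b, Krt34, Krt81, Krt85 and Krt86 had their maximum in KR 5 or KN1 2, from 12.6 CPM (Krt34) to 48.2 CPM (Krt31).

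Krt32 and Krt84 departed from this order. Krt32, a cuticle keratin, was present at 4.75 to 20.0 CPM in every mouse and was highest in KN1 control 7 (20.0 CPM), LR control 2 (19.0 CPM) and KN1 control 1 (17.0 CPM). In KN1 1 to KN1 4 Krt32 stood at 9.90, 11.0, 12.6 and 11.9 CPM, below both KN1 controls. Krt84, a type II hair keratin also known from tongue, reached 22.7 CPM in LR control 2 and at most 3.24 CPM elsewhere (KR control 6). LR 2, with 479 CPM of inner root sheath keratins, had 0.0862 CPM of Krt84.

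The 32 keratin-associated genes were low, and 16 of them had too few counts to be tested. Krtap8-1, a glycine- and tyrosine-rich protein of the cortex, was the highest of them per kilobase, at 10.4 CPM per kb. Krtap8-1 was at 0 and 8.02 CPM in KR controls 4 and 6, and at 0, 3.67, 16.5 and 25.2 CPM in KR 1, KR 3, KR 4 and KR 5. In LR controls 2, 3 and 5 Krtap8-1 was 11.9, 0 and 0 CPM, and in LR 1, LR 2 and LR 3 it was 0.0959, 10.8 and 0 CPM. In KN1 controls 1 and 7 it was 0.102 and 0 CPM, and in KN1 1 to KN1 4 it was 0.124, 30.0, 0.138 and 0.804 CPM. Krtap11-1, whose promoter is printed above, peaked at 26.6 CPM in KR 5 and 23.1 CPM in KN1 2 and was at most 0.247 CPM in the 10 mice with low inner root sheath keratins. At the depth of these libraries a count of 0 allows up to 3 counts, which is 0.145 to 0.415 CPM depending on the mouse.

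Krtap3-2 and Krtap17-1, on chromosome 11, were present in every mouse. Krtap3-2 was highest in KN1 control 1 (12.6 CPM) and KN1 control 7 (8.46 CPM), was 3.71, 6.02, 8.30 and 6.66 CPM in KN1 1 to KN1 4, and stayed at or below 2.82 CPM in the other 12 mice. Krtap17-1 was 1.45 and 1.44 CPM in KR controls 4 and 6, and 1.54, 7.33, 4.81 and 5.82 CPM in KR 1, KR 3, KR 4 and KR 5. Its highest mouse was KN1 4 at 16.1 CPM. Neither gene showed the gap between mice seen for Krt71.

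Trichohyalin, the arginine-rich protein that hardens the inner root sheath and medulla, is encoded by Tchh and was the most counted member. Tchh stood at 9.03 and 178 CPM in KR controls 4 and 6, and at 7.72, 57.5, 128 and 293 CPM in KR 1, KR 3, KR 4 and KR 5. Tchh in LR controls 2, 3 and 5 was 225, 11.1 and 7.87 CPM, and in LR 1, LR 2 and LR 3 it was 14.6, 460 and 9.05 CPM. In KN1 controls 1 and 7 it was 7.90 and 7.71 CPM, and in KN1 1 to KN1 4 it was 16.7, 260, 18.1 and 73.1 CPM. Unlike Krt71, Tchh kept a floor of at least 7.71 CPM in all 18 mice. Padi3, the enzyme that converts arginines of trichohyalin to citrulline, had no such floor: it was at 0 in KR control 4, KR 1, LR control 5, LR 3 and both KN1 controls, and reached 18.4 CPM in LR 2 and 17.8 CPM in KR 5. Tchhl1, a relative of trichohyalin, was at 0 in the 10 mice with low inner root sheath keratins and reached 3.85 CPM in KR 5. S100a3, a calcium-binding protein of the hair cuticle, peaked at 11.1 CPM in KR 5. Dsg4, a desmosomal cadherin of the hair shaft, peaked at 2.76 CPM in the same mouse.

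The 4 transcription factors were measured in every mouse. Their within-group SD was 0.45 (Foxn1) to 0.69 (Hoxc13) on the log2 scale. That was below the median of 2.16 over the 42 hair genes tested but above the median of 0.30 over all 16517 genes tested. Dlx3, which is also active in differentiating epidermis, stood at 28.2 and 51.4 CPM in KR controls 4 and 6 and 13.5, 13.97, 39.9 and 30.8 CPM in KR 1, KR 3, KR 4 and KR 5. In LR controls 2, 3 and 5 Dlx3 was 26.4, 21.9 and 15.7 CPM, and in LR 1, LR 2 and LR 3 it was 21.1, 26.4 and 9.91 CPM. In KN1 controls 1 and 7 it was 30.7 and 23.2 CPM, and in KN1 1 to KN1 4 it was 24.0, 44.2, 15.2 and 22.4 CPM. Foxn1, the gene mutated in nude mice, was 28.0 and 26.04 CPM in the KR controls against 15.4, 13.1, 21.8 and 16.7 CPM in KR 1, KR 3, KR 4 and KR 5. In LR controls 2, 3 and 5 Foxn1 was 15.8, 20.4 and 19.1 CPM against 11.7, 13.9 and 7.11 CPM in LR 1, LR 2 and LR 3. Foxn1 thus did not overlap between mutant and control in KR or LR. Of all genes tested, 19.5% had every mutant below every control in KR and 9.29% in LR. In the KN1 batch Foxn1 overlapped, at 15.6 and 7.38 CPM in controls 1 and 7 and 14.1, 11.3, 8.03 and 5.51 CPM in the mutants. Hoxc13, an activator of hair keratin genes, ranged from 3.49 CPM in LR control 5 to 29.8 CPM in KR 5, and Msx2 from 2.42 CPM in LR control 5 to 15.2 CPM in KN1 2.

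**Figure D2:**
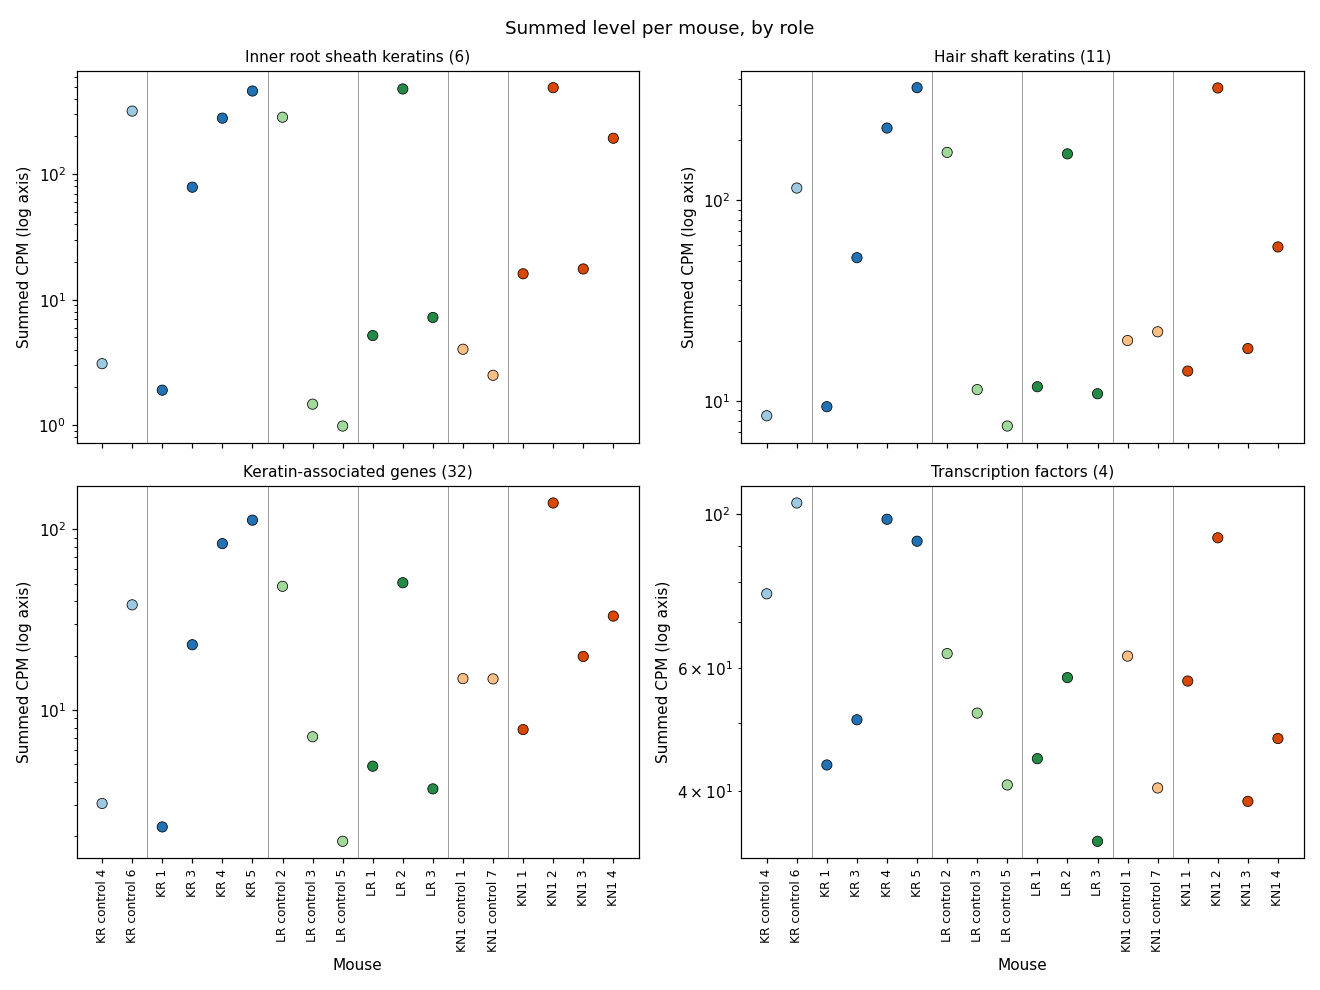
Summed CPM (log axis) of 4 roles in each mouse, 1 point a mouse, coloured by group, with pale points for controls. Inner root sheath keratins, shaft keratins and keratin-associated genes are high in the same mice, ranging from 0.984 to 490 CPM for the first, while the transcription factor sum stays between 33.8 and 104 CPM.

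Counted over all 58 genes, 49 reached 1 CPM in KN1 2, 39 in KR 4 and in KR 5, 36 in LR control 2, 34 in KR control 6 and in LR 2, 28 in KN1 4 and 27 in KR 3. In the remaining mice between 6 (LR control 5) and 15 (KN1 3) did. KN1 2 was the highest mouse for 31 of the genes, KR 5 for 14 and LR 2 for 6. Together the 58 genes took from 0.00600% of the library in LR control 5 to 0.147% in KR 5. The spread between mice of 1 group was large: the pooled SD within groups of log2 CPM had a median of 2.16 over the 42 genes tested, against 0.30 over all 16517 genes tested. It exceeded the 95th percentile of all genes (0.81) in 36 of the 42. The lowest spreads belonged to Krt32 (0.42) and Foxn1 (0.45).

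The balance between sheath and shaft also differed between mice. Of the counts on the 6 inner root sheath keratins and 9 shaft keratins (Krt32 and Krt84 left out), the sheath keratins took 80.7% in KN1 4 (exact 95% binomial interval 79.0% to 82.4%, from 1685 sheath and 402 shaft counts). They took 75.5% in KR control 6, 74.5% in LR 2, 68.4% in LR control 2, 64.1% in KR 3, 58.3% in KN1 2, 56.5% in KR 5 and 55.8% in KR 4. Among these 8 mice the intervals of KR 4, KR 5 and KN1 2 lay below those of the other 5. Keratin-associated genes other than Krtap3-2 and Krtap17-1 took 18.3% of their sum with the 9 shaft keratins in KN1 4 (interval 15.0% to 22.0%) and 21.9% (LR 2) to 27.1% (KN1 2) in the other 7. In the 10 mice with few counts the intervals were wide, and in LR controls 3 and 5 the sheath share was 33.3% (19.1% to 50.2%) and 34.4% (18.6% to 53.2%). KN1 1 had the highest share of all mice, at 82.3% (75.4% to 87.9%), with an interval that overlapped that of KN1 4. KN1 3 had 76.5% (69.3% to 82.7%). The rest of the 10 lay between 55.2% (KR 1) and 64.65% (KR control 4). These intervals cover counting error only and treat each read as an independent molecule. PCR reads without molecular identifiers are not independent molecules, so the intervals may be too narrow.

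**Figure D3:**
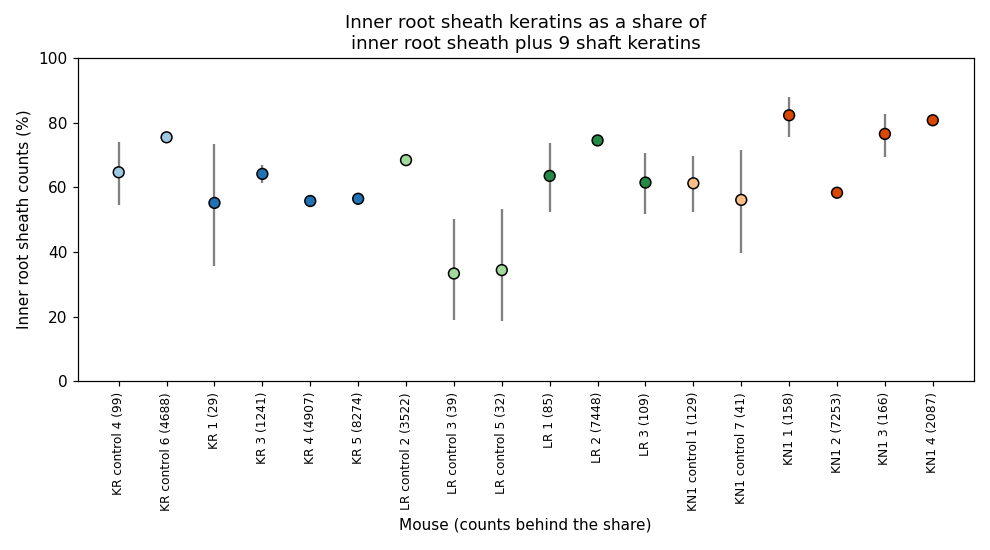
Inner root sheath keratin counts as a percentage of inner root sheath plus 9 shaft keratin counts in each mouse, with exact 95% binomial intervals as bars and the number of counts in brackets on the axis. KN1 4 (80.7%), KR control 6 (75.5%) and LR 2 (74.5%) lie above KR 4 (55.8%), KR 5 (56.5%) and KN1 2 (58.3%), and the mice with few counts have wide bars.

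In KR against its controls none of the 42 genes tested passed an adjusted p of 0.05 (edgeR quasi-likelihood test, Benjamini-Hochberg over 16517 genes). Of all genes tested 1.6% passed. At an unadjusted p under 0.05 only Foxn1 was counted, lower in KR (1 of 42, against 22.9% of all genes), and DESeq2 called 0 of the 58 (5.12% of all). The Foxn1 value was -0.69 ± 0.32 (log2 fold change ± SE, adjusted p = 0.209), with every KR mouse below both controls; 19.5% of all genes showed this order. Krtap17-1 was the only member with every KR mouse above both controls (19.0% of all genes), at 1.76 ± 0.84 (adjusted p = 0.226). Krt71 gave 0.36 ± 2.38, Krt35 1.25 ± 2.23, Krt83 2.12 ± 2.38, Krtap8-1 1.58 ± 2.43, Tchh 0.39 ± 1.90, Padi3 0.51 ± 2.26 and Dlx3 -0.69 ± 0.47 on the log2 scale. The standard errors were larger than the estimates for all of these but Dlx3. The median over the 42 was 1.32, with 36 above 0, beside 0.04 and 53.4% over all genes. With all 58 genes and no filter on low counts the median was 1.03. Without KR control 6 the median was 5.26, and without KR control 4 it was 0.10, each over the 50 genes that then passed the filter.

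In LR against its controls again 0 of 42 passed by edgeR's quasi-likelihood test (1.12% of all genes did). Krt84 and Foxn1 were lower at an unadjusted p under 0.05 (2 of 42, against 15.5% of all genes), and DESeq2 called 0 of 58 (2.55% of all). Krt84 gave -4.50 ± 1.66 (adjusted p = 0.202), which rests on LR control 2: without that mouse it was 1.56 ± 1.65. Foxn1 gave -0.76 ± 0.32 (adjusted p = 0.260), with every LR mouse below every control, an order shown by 9.29% of all genes. No member had every LR mouse above every control (10.3% of all genes). Krt71 gave 0.67 ± 2.25, Krt35 0.43 ± 2.04, Krt83 0.30 ± 2.12, Krtap8-1 -0.06 ± 2.28, Tchh 0.99 ± 1.79, Padi3 0.91 ± 2.20, Dlx3 -0.15 ± 0.47 and Krt32 -0.65 ± 0.32 on the log2 scale. The median over the 42 was 0.30 (31 above 0, beside 49.5% over all genes). Leaving out 1 mouse gave a median of 4.60 (without LR control 2) or -3.73 (without LR 2), each over the 41 genes that then passed the filter. Without LR 2 the sign turned for 28 of the 42.

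The KN1 comparison had the largest fitted differences and the widest errors. By edgeR's quasi-likelihood test 0 of 42 passed (1.97% of all genes did). At an unadjusted p under 0.05 Krtap3-3 was higher and Krt32 lower (2 of 42, against 18.5% of all genes). Every KN1 mouse lay above both controls for 13 of the 42 tested, against 13.8% of all genes tested. The 13 were the 6 inner root sheath keratins, Krt34, Krt35, Krt85, Krtap3-3, Krtap8-1, Tchh and Padi3. Most of these genes were high in the same mice, so they are not separate results. The reverse order held for Krt32 and Krtap3-2 (14.3% of all genes). DESeq2 called 4 of the 58, all higher, namely Krt25 (adjusted p = 0.0177), Krt33b (4.03e-06), Krt71 (0.0180) and Krt73 (0.0484), against 3.79% of all genes. By edgeR's main test the adjusted p was 0.360 for Krt25, 0.402 for Krt33b, 0.358 for Krt71 and 0.366 for Krt73. Other settings gave higher values for each of them. With the 7 controls pooled edgeR called Foxn1 lower (adjusted p = 0.0494) and Krtap17-1 higher (adjusted p = 0.0488), against 11.6% of all genes, and then mutant and batch cannot be told apart. Elsewhere their adjusted p reached 0.951 and 0.828. The log2 fold changes by edgeR's main test were 7.58 ± 4.17 for Krt71 (adjusted p = 0.358), 7.01 ± 3.92 for Krt73, 4.83 ± 3.01 for Krt35, 5.47 ± 3.33 for Krt83, 3.56 ± 2.35 for Tchh, -0.70 ± 0.32 for Krt32 (adjusted p = 0.255) and -0.78 ± 0.47 for Krtap3-2.

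Several KN1 differences stand on empty control libraries. Both KN1 controls had 0 counts for 22 of the 58 genes, which makes any ratio a lower bound. Set against 3 counts over the 2 controls, the level pooled over the KN1 mice was at least 69.2-fold higher for Krt33b and 52.7-fold for Padi3. It was at least 52.1-fold higher for Krt72 and 26.5-fold for Krtap15, named after its value was seen. These bounds do not hold for each mouse: Krt33b had 0, 214, 1 and 20 counts in KN1 1 to KN1 4. Krt25 had 1370 counts in KN1 and 1 in its controls, a ratio of 1210 with a counting interval of 217 to 47800. This interval and those that follow, like the bounds above, pool the reads of each group and leave out the spread between mice. Among the KN1 mice Krt25 ran from 15 to 942 counts, and edgeR, which takes that spread into account, gave adjusted p = 0.360. Krtap8-1 had 268 against 2 counts, a ratio of 118 (32.4 to 982). Krtap3-3 had 25 against 2 counts, a ratio of 11.0 (2.75 to 96.2), and the smallest adjusted p of the 42 (0.191). Mouse KN1 2 carried most of these counts, as it did for Krt71 and Krt83 above. The median of the 42 fitted log2 fold changes was 5.23 (38 above 0, beside 51.8% over all genes), and 3.63 with the 12 zero-control genes among them at their bound. Without KN1 2 the median was 2.63, over the 39 genes that then passed the filter on low counts.

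**Figure D4:**
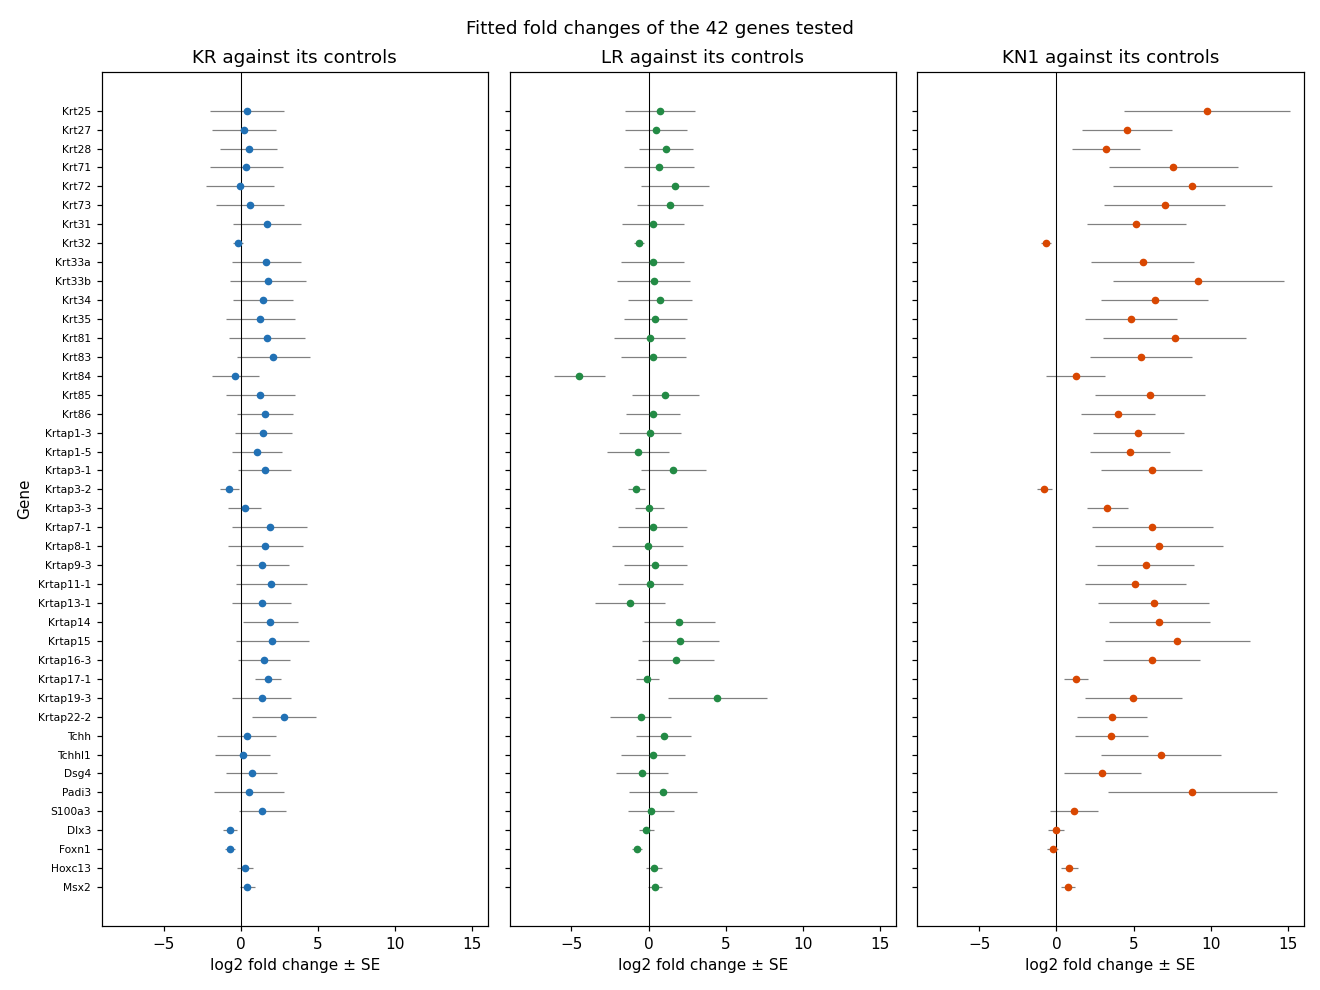
Fitted log2 fold change ± SE of the 42 genes tested in KR, LR and KN1 against their own controls, 1 point a gene. The SE is derived from the fold change and its F statistic. Error bars of the keratins and keratin-associated genes span several log2 units in each panel, the KN1 points lie to the right with the widest bars, and Krt32, Foxn1 and Dlx3 have short bars near 0.

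**Figure D5:**
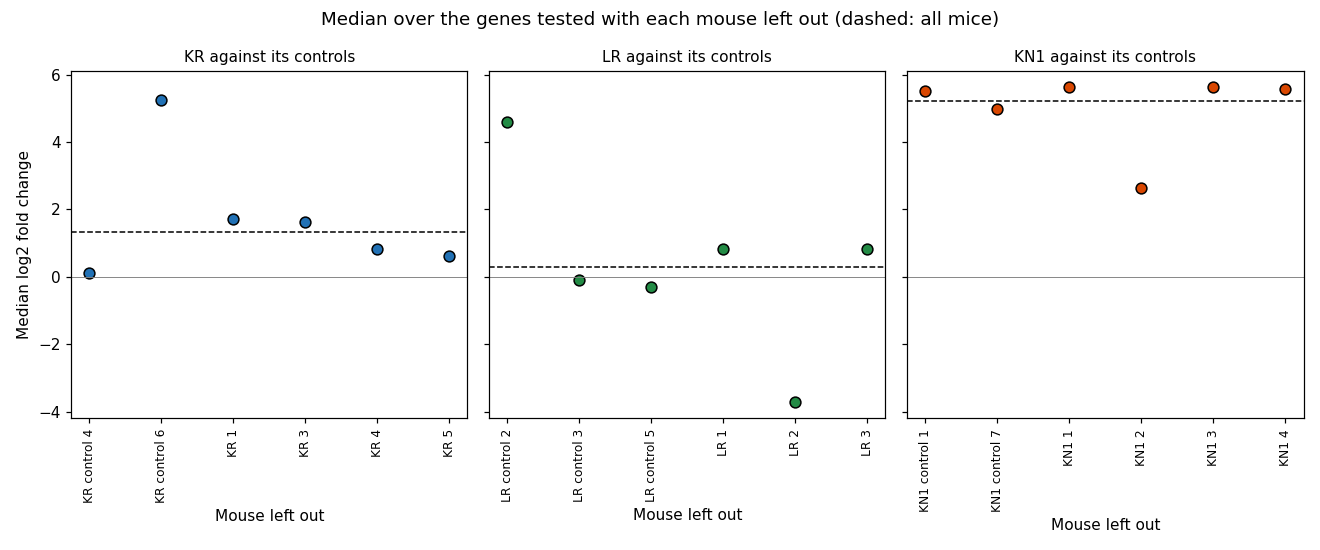
Median log2 fold change over the genes tested after leaving out each mouse of a comparison in turn (points), with the median from all mice as a dashed line. The filter on low counts was applied anew each time, so the genes behind a point can differ. The KR median moves from 1.32 to 5.26 without KR control 6, the LR median from 0.30 to -3.73 without LR 2 and to 4.60 without LR control 2, and the KN1 median from 5.23 to 2.63 without KN1 2.

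The difference between mutants was tested in the same fit. By edgeR's quasi-likelihood test 0 of the 42 differed between KR and LR (0.00605% of all genes did), 0 between KR and KN1 (0.0%), and 0 between LR and KN1 (0.00605%). At an unadjusted p under 0.05 these counts were 0, 0 and 1, against 4.15%, 7.57% and 7.04% of all genes. The 1 gene was Krt84, at -5.74 ± 2.54 for LR minus KN1 (adjusted p = 0.676). DESeq2 called 0 of 58 for KR minus LR (0.019% of all genes). It called Krt33b alone for KR minus KN1 (0.186%) and for LR minus KN1 (0.319%), a gene with 0 counts in both KN1 controls. For Krt33b edgeR gave adjusted p = 0.817 (KR minus KN1) and 0.851 (LR minus KN1), and KN1 2 held 214 of its 235 counts in KN1. By edgeR the larger fitted values in KN1 were not shown to differ from those in KR or LR.

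Of 21 other structural genes of the follicle 18 were tested, and 0 passed by edgeR in any of the 3 comparisons, with medians of 0.32 (KR), -0.06 (LR) and 3.43 (KN1). The smallest adjusted p was 0.155 in KR for Liph, a lipase needed for straight hair, 0.168 in LR for Krt80, a keratin of differentiated epithelia, and 0.132 in KN1 for Padi4. Krt87, a cortex keratin named here after its values were seen, lay between 2.99 CPM (KN1 4) and 64.7 CPM (KR 5) in the 8 mice that were high for Krt71 and between 0.051 CPM (KN1 control 1) and 1.52 CPM (KN1 3) in the other 10. Krt75, the keratin of the companion layer next to the sheath, lay between 14.5 CPM (LR 1) and 97.4 CPM (KN1 4).

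Regulators of hair growth were followed as 39 genes, of which 37 had a row and 36 were tested. Wnt10a, a Wnt ligand of follicle and epidermis, rose in LR by edgeR (log2 fold change 0.95 ± 0.19, adjusted p = 0.0179), from 120, 114 and 94.6 CPM in LR controls 2, 3 and 5 to 217, 188 and 229 CPM in LR 1, LR 2 and LR 3. It was the only one of the 36 to pass in any comparison, and its adjusted p lay between 0.0566 and 0.101 without LR 1, LR 3, LR control 3 or LR control 5. In KR Wnt10a gave 0.79 ± 0.21 (adjusted p = 0.0565). Gli2, a Hedgehog transcription factor, gave 0.90 ± 0.26 in KN1 (adjusted p = 0.0812). Lef1, the partner of Wnt signals that binds CTTTGAA-type sites, was 5.59 CPM (KR control 6) to 12.2 CPM (LR 2) in the 8 mice with high inner root sheath keratins and 1.16 CPM (LR control 5) to 7.97 CPM (LR 3) in the other 10, and it passed no test. The ranges overlapped through LR 3, since the next of those 10 was KN1 control 7 at 4.12 CPM. LR 3 separated these regulators from the structural genes: it had the most Gli1 of the 18 mice (76.9 CPM) and 2.15 CPM of Shh, but 7.22 CPM of inner root sheath keratins. Lef1, Gli1 and Shh are named here after their values were seen.

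Markers of other cell types were summed per mouse, and their part in the results was not tested. The 10 melanocyte genes summed to 65.8 and 124 CPM in KR controls 4 and 6 and to 79.4, 106, 128 and 138 CPM in KR 1, KR 3, KR 4 and KR 5. In LR controls 2, 3 and 5 the sum was 85.8, 82.5 and 85.6 CPM, and in LR 1, LR 2 and LR 3 it was 74.2, 128 and 115 CPM. In KN1 controls 1 and 7 it was 49.4 and 57.0 CPM, and in KN1 1 to KN1 4 it was 80.3, 96.9, 71.4 and 102 CPM. Of the 10 genes Oca2 was at 0 in 11 mice and Slc45a2 in LR 1, and the others were above 0 in every mouse. Pmel, a pigment granule protein, rose in KN1 (1.01 ± 0.25, edgeR adjusted p = 0.0423), the only one of the 9 melanocyte genes tested to pass in any comparison. Pmel stood at 13.2 and 10.7 CPM in KN1 controls 1 and 7 and 23.2 to 25.2 CPM in the KN1 mice, and without any 1 of these 6 mice its adjusted p was 0.0568 to 0.335. The 20 cell cycle genes summed to 661 and 978 CPM in KR controls 4 and 6 against 671 to 1177 CPM in KR mice, and to 653 and 774 CPM in the KN1 controls against 682 to 922 CPM in KN1 mice, so both overlapped. The LR controls had 545 to 682 CPM and the LR mice 756 to 1047 CPM, without overlap, and 0 of the 20 genes passed in any comparison. Dermal papilla markers, 6 of 8 tested, stayed between 13.1 and 29.5 CPM, fibroblast markers between 46.3 and 121 CPM, endothelial markers between 2.85 and 8.42 CPM and skeletal muscle markers between 3.36 and 14.2 CPM in all mice. Bulge markers lay between 5651 and 12100 CPM, upper follicle markers between 2780 and 8684 CPM and sebocyte markers between 1790 and 7059 CPM. Of these last lists only Gata6 of the upper follicle passed, rising in LR (1.41 ± 0.21, adjusted p = 0.00159; 0.0737 with the LR batch fitted alone). Of 5 basal epidermis genes Krt14 rose in KR (0.82 ± 0.16, adjusted p = 0.0211) and Itgb4, an integrin of basal cells, rose in KN1 (0.65 ± 0.16, adjusted p = 0.0456), both by edgeR. Krt14 no longer passed without KR control 4, KR control 6, KR 3 or KR 5 (0.0621 to 0.334), and Itgb4 without any 1 mouse of its batch (0.0531 to 0.333). Of 5 suprabasal genes 0 passed in any comparison.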

How the data were processed

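RNA of the epidermal cell fraction of 18 mice was sequenced, and the authors deposited 1 table of raw counts per gene, a unit read from its whole numbers. The submitters' processing notes name STAR, HTSeq, DESeq2 and mm10; versions, roles, filters and strand use are not given in the sources used here. Every one of the 21011 rows sums to at least 18 counts. All per-sample columns matched a mouse (0 unmatched). Groups came from the labels, and each replicate is a separate mouse.

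Counts were fitted with edgeR 4.0.16 (R 4.3.3; TMM factors, filterByExpr, robust quasi-likelihood F test, 6 group means, 18 mice), leaving 16517 genes; the common biological coefficient of variation was 0.225. Fold changes are on the log2 scale. Each standard error (SE) is the size of the fold change divided by the square root of its F statistic. It is not estimated by the fit itself and is unsteady where a group has few or 0 counts. The p-values were Benjamini-Hochberg adjusted over all genes tested, with 0.05 as threshold. Levels are CPM over TMM-scaled library sizes; log2 levels use a prior count of 2. A count of 0 was read as up to 3 counts. Intervals are exact at 95%. Library totals set the precision of low levels. The script was tested on simulated data.

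The 26 listed symbols could be named, with the Krtap genes past the threshold or highest in each cluster, and from related lists those past 0.05 or with the smallest adjusted p; others are said to be named after their values were seen, and 1 gene that the rule names is not reported here. Members and lists were chosen with earlier results of these data known. Alternatives were RLE factors, DESeq2 1.42.0, no filter or a mean of at least 1 CPM, each batch alone, all 7 controls pooled, the second-named controls left out (LR control 5, KR control 6, KN1 control 7), a replicate block in LR, and each mouse left out.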

Additional observations from a re-analysis of the deposited data

How the results depend on the processing

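The counts and medians below are those from edgeR unless DESeq2 is named, and the cause of each change was not tested. The filter on low counts was applied anew in each edgeR fit, so the genes behind a median can differ. No hair gene passed in KR or LR under any setting run; in KN1 the count of 0 became 4 with DESeq2 and 2 with all 7 controls pooled, and DESeq2 gave 1 for KR minus KN1 and 1 for LR minus KN1. Over all genes the KR count of 264 became 1076 (DESeq2), 672 (batch alone), 809 (pooled) and 32 (no second-named controls), while leaving out 1 mouse gave 5 (without KR control 6) to 1353 (without LR control 5). The LR count of 185 became 536 (DESeq2), 66 (batch alone) and 1052 (pooled), and 60 to 246 with 1 mouse left out. The KN1 count of 325 became 797 (DESeq2), 98 (batch alone), 1867 (pooled) and 41 (without the second-named controls), and 2 (without KN1 control 7) to 640 with 1 mouse left out. The median of the hair genes moved in KR from 1.32 to 5.26 (second-named controls left out) and 0.10 to 5.26 with 1 mouse left out, in LR to -3.73 to 4.60, and in KN1 from 5.23 to 1.40 with pooled controls and 2.63 to 5.65 with 1 mouse left out. Where 1 control remained, it was assumed to vary like the other groups.

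Settings other than leaving out 1 mouse turned the sign of 2 of the 42 genes tested in KR, 19 in LR and 2 in KN1. Among the genes whose fold changes the report gives, it turned without the second-named controls for Krt35 (-0.16) and Krt83 (-0.30) in LR, and with pooled controls for Krtap3-2 in KN1 (0.51) and Krtap8-1 in LR (0.44). Leaving out 1 mouse turned the sign of 13 of the 42 in KR, 37 in LR and 3 in KN1. In KR the log2 fold change then ran from -0.65 to 7.30 for Krt71, -0.54 to 9.35 for Padi3 and -0.55 to 3.72 for Tchh. In LR it ran from -4.36 to 7.76 for Krt71, -3.21 to 5.76 for Krt35, -2.97 to 6.48 for Krt83, -5.20 to 1.56 for Krt84, -5.96 to 8.33 for Krtap8-1, -5.75 to 6.66 for Padi3, -2.78 to 4.10 for Tchh, -0.45 to 0.16 for Dlx3 and -0.97 to 0.0067 for Krt32. In KN1 it ran from -0.40 to 0.19 for Dlx3 and -0.68 to 0.40 for Foxn1. Over the single genes whose fold changes were followed through the alternatives, 499 values kept their direction and side of the threshold, 31 turned sign, 34 lost a call and 13 gained one. At these depths 3 counts correspond to 0.145 to 0.415 CPM, so lower levels of most Krtap genes could not be told from 0.

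A replicate block in LR, where numbers 2 and 3 recur, gave 163 genes called, 0 of them hair genes, and a median of 0.22. Mice with the same number did not deviate together (correlations 0.07 for number 2 and -0.08 for number 3), so the numbers were not taken to pair mice; KR and KN1 share only 1 number each with their controls.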
